A study of Bos taurus with 56 samples.

Results

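The genes described here are 10 members of the feedback circuit of the ERK branch of MAPK signalling. They are the phosphatases DUSP4, DUSP5 and DUSP6, the Sprouty genes SPRY1, SPRY2 and SPRY4, the Spred genes SPRED1 and SPRED2, and the transcription factors ETV4 and ETV5. They were selected by symbol, and all 10 were present among the 31903 genes of the count table. Which values led to the list is not stated. The difference of DUSP6 between the sides of the ampulla was assumed to be the reason, so the side values of the ampulla are given as a description with no test. The tests in the other comparisons may not be independent of the choice either.

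When growth factors bind their receptor tyrosine kinases, the signal passes through RAS, RAF and MEK to ERK, and ERK switches on genes that restrain the same route. DUSP6 removes phosphates from ERK in the cytoplasm, and DUSP4 and DUSP5 act on MAP kinases in the nucleus. Sprouty and Spred proteins act higher up, between the receptor and RAF, and ETV4 and ETV5 are ETS transcription factors whose genes are switched on by FGF and ERK signalling. Transcripts of this set are widely read as a trace of recent ERK activity, although mRNA is not a measure of the kinase itself.

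RNA was sequenced from epithelial cells scraped from the bovine oviduct, in the ampulla, where fertilization takes place, and in the isthmus, which leads to the uterus. Both regions were taken from the side that carried the corpus luteum (CL; ipsilateral) and from the other side (contralateral) of 14 Holstein animals, which gave 56 libraries in 12 conditions. There were 5 nulliparous heifers, 5 post-partum non-lactating cows that were dried off at calving and 4 post-partum lactating cows that were milked, and both cow groups were killed about 60 days after calving. Every animal had its cycle synchronized with an intravaginal progesterone device, a prostaglandin F2α analogue and a GnRH agonist, and all tissues were collected on Day 3 of the cycle. The libraries held 1901454 to 6836850 counts on genes (median 4931502.5), and values are given as CPM (counts scaled to a library of fixed size), with the SD between animals. CPM is not divided by gene length, so levels are compared between samples and not between genes.

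The defining markers of the labelled tissue were present. The summed level of 9 ciliated cell markers was 3621 to 9887 CPM over the 56 libraries, that of 6 secretory cell markers 604 to 38232 CPM and that of 5 epithelial markers 857 to 1893 CPM. For other cells the summed level was 10.7 to 139 CPM for 7 smooth muscle genes, 13.3 to 419 CPM for 6 endothelial genes, 31.3 to 612 CPM for 7 fibroblast genes and 16.9 to 254 CPM for 10 leukocyte genes. HBB and HBA of red blood cells were at 0 in all 56 libraries, CLDN5 of endothelium in 55, and TAGLN and CNN1 of smooth muscle in 45 and 44. Single genes made up much of some sums. OVGP1 had a median of 9476 CPM beside 10369 CPM for the secretory sum, and KDR 74.4 CPM beside 106 CPM for the endothelial sum. MYLK had 19.8 CPM beside 55.2 CPM for the smooth muscle sum, and FBLN1 51.3 CPM beside 88.5 CPM for the fibroblast sum. The fibroblast genes COL1A1, DCN and LUM were at 0 in 25, 24 and 27 libraries. In bulk RNA, fewer cells of a type and less RNA per cell cannot be told apart. In the ipsilateral ampulla 4 libraries were in doubt. The column names of 1 non-lactating and 1 lactating library carried each other's group's animal numbers, and 2 more did not resemble their own animal best. That of heifer B correlated at 0.63 with non-lactating cow B against 0.31 with its own, and that of non-lactating cow B at 0.57 with heifer B against 0.47. Animals are lettered within their group, libraries stayed in the group of their label, and per-animal counts put the exchanged numbers right.

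DUSP6 was detected in every library, with 14 to 304 counts and 2.80 to 61.0 CPM. Its lowest levels were all in the contralateral ampulla. There it stood at 7.69, 8.31, 15.4, 12.98 and 15.3 CPM in heifers (mean 11.9 ± 3.7 SD), at 8.64, 2.80, 7.87, 5.87 and 5.11 CPM in non-lactating cows (6.06 ± 2.32) and at 10.6, 6.27, 8.15 and 9.37 CPM in lactating cows (8.59 ± 1.84). In the ipsilateral ampulla it stood at 32.7, 18.9, 41.7, 19.5 and 53.7 CPM in heifers (33.3 ± 14.9), at 16.5, 39.3, 26.6, 21.7 and 14.4 CPM in non-lactating cows (23.7 ± 9.9) and at 14.4, 14.3, 20.5 and 14.3 CPM in lactating cows (15.9 ± 3.1). Within each metabolic group the ipsilateral and contralateral ampulla libraries did not overlap.

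In the isthmus of either side, all DUSP6 values of a metabolic group stood above those of its contralateral ampulla. Ipsilaterally it stood at 27.3, 26.1, 30.5, 36.3 and 23.4 CPM in heifers (28.7 ± 5.0), at 24.7, 35.3, 16.6, 13.1 and 36.0 CPM in non-lactating cows (25.1 ± 10.5) and at 19.6, 20.4, 61.0 and 29.2 CPM in lactating cows (32.6 ± 19.5). Contralaterally it stood at 42.2, 34.3, 34.2, 28.2 and 32.3 CPM in heifers (34.2 ± 5.1), at 16.0, 18.5, 29.0, 17.8 and 16.0 CPM in non-lactating cows (19.5 ± 5.5) and at 22.1, 20.3, 28.7 and 21.0 CPM in lactating cows (23.0 ± 3.9). On the ipsilateral side the isthmus was above the ampulla in 9 of 14 animals, among them 4 of 4 lactating cows. Whether this difference depended on the metabolic group was not tested. With the 12 condition means put in order, only 2 of the gaps between neighbours were larger than both of their SDs. These were the step from the lactating ipsilateral ampulla (15.9 CPM) to the heifer contralateral ampulla (11.9 CPM), and that from the lactating (8.59 CPM) to the non-lactating contralateral ampulla (6.06 CPM).

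**Figure D1:**
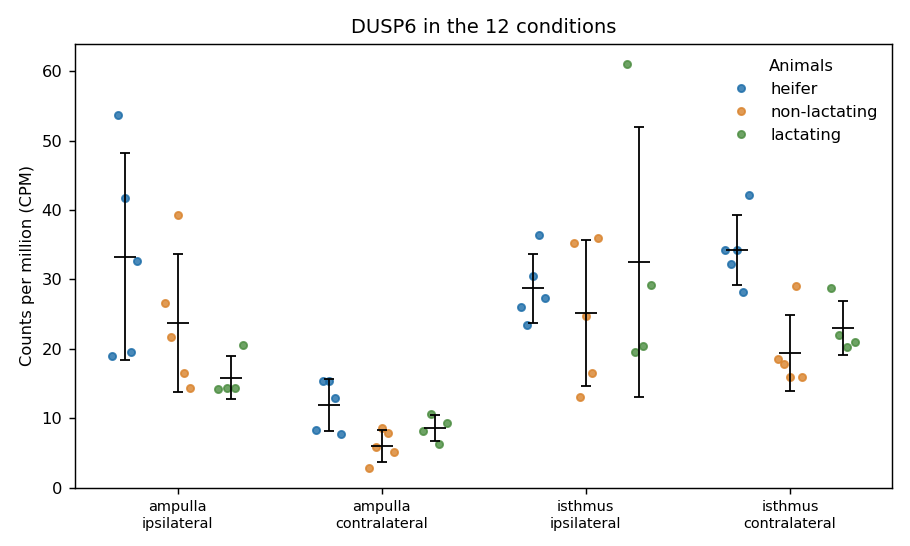
DUSP6 in CPM (y axis, linear from 0) in the 4 tissues (x axis) of heifers, non-lactating and lactating cows. Each point is a library, the horizontal mark is the group mean and the bar 1 SD; the contralateral ampulla holds the lowest means, 6.06 to 11.9 CPM.

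Between the sides of the ampulla, the difference assumed to have led to the list, DUSP6 was higher ipsilaterally in 14 of 14 animals. The log2 fold change (ipsilateral minus contralateral) was 1.48 ± 0.20 (SE) over all animals, 1.49 ± 0.32 in heifers, 1.99 ± 0.33 in non-lactating cows and 0.87 ± 0.26 in lactating cows, against a median of -0.01 over all genes. Without the 4 libraries in doubt it was 1.57 ± 0.21 over all animals. The nuclear phosphatase DUSP5, the other one with enough reads, was also higher ipsilaterally, by 0.99 ± 0.23 on the log2 scale and in 13 of 14 animals. Its range was 1.99 to 7.61 CPM (median 4.31) ipsilaterally and 0.640 to 4.00 CPM (median 2.36) contralaterally, so the libraries overlapped.

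The remaining members differed less between the sides of the ampulla. The 3 Sprouty genes had log2 fold changes of 0.35 ± 0.15 (SPRY1), 0.24 ± 0.19 (SPRY2) and 0.26 ± 0.17 (SPRY4), and the Spred genes 0.01 ± 0.11 (SPRED1) and 0.20 ± 0.11 (SPRED2). ETV5 had 0.48 ± 0.39 with 8 of 14 animals higher ipsilaterally, and the low-count ETV4 and DUSP4 had 0.31 ± 0.53 and -0.31 ± 0.52. Among the markers of other cells, the summed smooth muscle level had a median of 68.5 CPM ipsilaterally and 34.4 CPM contralaterally in the ampulla, and the endothelial level 160 and 232 CPM. Their part in the DUSP6 and DUSP5 values was not tested.

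**Figure D2:**
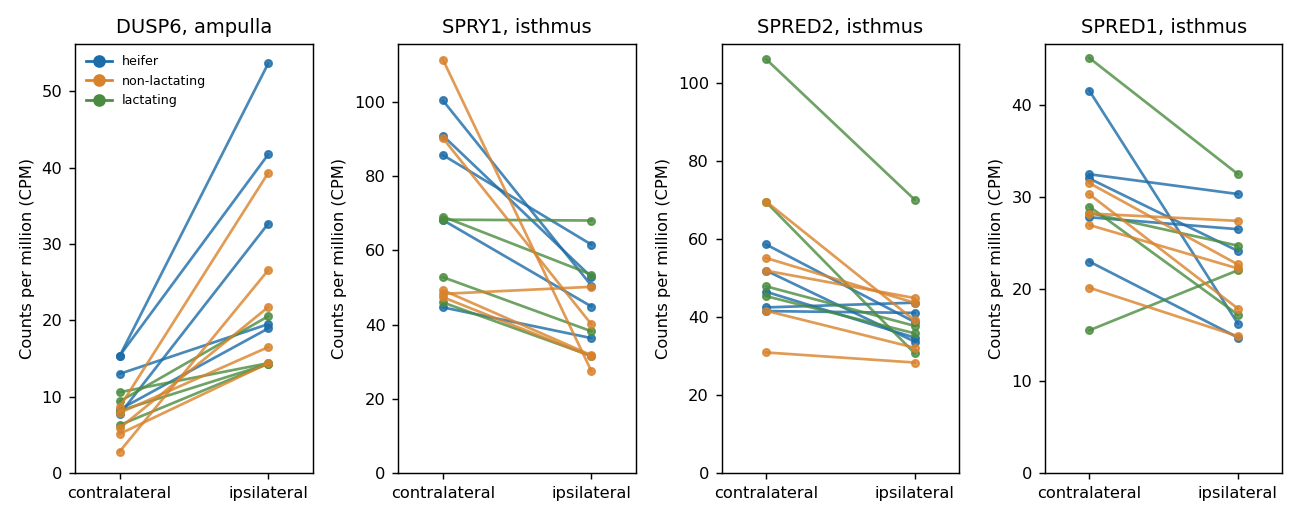
CPM (y axis, linear from 0) in the contralateral and ipsilateral library of each animal, joined by a line and coloured by metabolic group, for DUSP6 in the ampulla and for SPRY1, SPRED2 and SPRED1 in the isthmus. DUSP6 rises towards the ipsilateral side in 14 of 14 animals, and each of the 3 isthmus genes falls in 13 of 14.

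Whether the side of the CL matters in the isthmus was asked of the same genes. Over all 14 animals, the inhibitors SPRY1, SPRED1 and SPRED2 were lower ipsilaterally, while DUSP6 did not pass the test. The main fit had a term for metabolic group and none for the animal, so its p-values do not use the pairing of sides. By edgeR's quasi-likelihood F test with Benjamini-Hochberg adjustment over all genes, 3 of 9 members tested were called at an adjusted p under 0.05. All 3 were lower, beside 29.3% of the 14506 genes tested being called. That share of members is close to the background and is not a result about the set.

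SPRY1 ranged from 27.4 to 68.0 CPM (median 42.5) in the ipsilateral and from 44.6 to 111 CPM (median 68.2) in the contralateral isthmus. The libraries overlapped, but SPRY1 was lower ipsilaterally in 13 of 14 animals. The log2 fold change was -0.66 ± 0.15 (adjusted p = 0.00168), and it stayed past the threshold when any 1 animal was left out. SPRY1, a membrane-bound inhibitor of receptor signalling, stands among the genes the study itself listed for the isthmus of heifers and of non-lactating cows, so its direction is not independent evidence.

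SPRED2, which keeps RAF from being activated by RAS, ranged from 28.3 to 70.0 CPM (median 38.2) ipsilaterally and from 30.9 to 106 CPM (median 49.8) contralaterally. It was lower ipsilaterally in 13 of 14 animals, with a log2 fold change of -0.44 ± 0.13 (adjusted p = 0.0128). SPRED1, its close relative, ranged from 14.7 to 32.5 CPM (median 22.5) and from 15.5 to 45.2 CPM (median 28.6), again lower in 13 of 14 animals (-0.39 ± 0.14, adjusted p = 0.0345). The call of SPRED1 depended on single animals, since the adjusted p was 0.101 without heifer E, 0.0587 without lactating cow D, 0.0713 without non-lactating cow C and 0.0522 without non-lactating cow E.

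The member phosphatases DUSP6 and DUSP5 were not called in the main fit, and neither were the inhibitors SPRY2 and SPRY4. A difference between phosphatases and inhibitors as classes was not tested. DUSP6 had a log2 fold change of 0.19 ± 0.17 (95% interval -0.15 to 0.52, adjusted p = 0.445), with 7 of 14 animals higher ipsilaterally. DUSP5 had 0.59 ± 0.24 and was higher ipsilaterally in 11 of 14 animals, at an adjusted p of 0.0678. With the animal as a block, 5 members were called in place of 3, DUSP5 (0.61, adjusted p = 0.0378) and ETV4 (-1.32, adjusted p = 0.00733) being added, beside 31.3% of all genes in the same fit. The DUSP5 call also appeared without heifer B (adjusted p = 0.0384), non-lactating cow B (0.0374) or non-lactating cow E (0.0414). SPRY2 (-0.28 ± 0.20), SPRY4 (-0.41 ± 0.39) and ETV5 (-0.86 ± 0.46) did not pass either fit.

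Within the metabolic groups no member was called between the sides of the isthmus, where 10% of genes were called in heifers, 5.11% in non-lactating cows and 0.187% in lactating cows. Unadjusted p-values were under 0.05 for 5, 1 and 1 of the 8 members tested, beside 27.2, 21.5 and 12.2% of all genes. DESeq2 called 1, 1 and 0 members, SPRY1 in both cases, beside 13.4, 8.2 and 2.5% of the genes it tested. For SPRY1 the log2 fold change was -0.67 ± 0.20 in heifers (adjusted p = 0.0560), -0.96 ± 0.26 in non-lactating cows (0.0520) and -0.30 ± 0.24 in lactating cows (0.699). With the animal as a block SPRY1 was called in heifers (-0.63, adjusted p = 0.00697) and ETV5 in lactating cows (-1.14, adjusted p = 0.0377), where the same fits called 13.3 and 2.3% of all genes. SPRY1 was also called in heifers without heifer D (-0.73, adjusted p = 0.0146) and in non-lactating cows without cow E (-1.20, adjusted p = 0.0356). A test of whether the side difference depended on the metabolic group called 0% of 15031 genes and 0 of 9 members by edgeR, with 0 members at an unadjusted p under 0.05 and 0 called by DESeq2.

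Summed markers of several other cell types also had lower medians in the ipsilateral than in the contralateral isthmus. The medians were 160 and 245 CPM for fibroblasts, 30.6 and 45.2 CPM for endothelium and 31.5 and 42.8 CPM for leukocytes, while smooth muscle stood at 86.7 and 49.1 CPM. The counts of called genes that follow stand beside 29.3% of all genes called in this comparison. Of the 6 tested fibroblast genes 1 was called, lower. For the other lists the genes called higher and lower were 2 and 0 of 4 for smooth muscle, 1 and 1 of 5 for endothelium, 0 of 7 for leukocytes, 3 and 0 of 5 for general epithelium, 1 and 1 of 9 for ciliated cells and 1 and 1 of 6 for secretory cells. The part of these cells in the SPRY1, SPRED1 and SPRED2 values was not tested.

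Other genes of the route were counted in the same comparison. Of 24 tested ERK target and feedback genes outside the 10 members, 7 were called and all 7 were lower in the ipsilateral isthmus, with a list median of -0.23 beside 0.00 over all genes. That share is close to the 29.3% of all genes called and is not a result about the list. The called genes with the smallest p were IER3, an early response gene (log2 fold change -0.98, adjusted p = 0.00105), MYC, a transcription factor of cell growth (-0.92, adjusted p = 0.00148), CCND1, a cyclin of the G1 phase (-0.72, adjusted p = 0.00711), and DUSP16, a phosphatase of the stress kinases (-0.26, adjusted p = 0.0152). Receptor tyrosine kinases were lower as well, 8 of 11 called and all 8 in that direction, led by ERBB4 (-1.06, adjusted p = 2.83e-08) and INSR (-0.46, adjusted p = 2.08e-06). Ligands went both ways, 3 higher and 4 lower of 13, with PDGFC at -0.53 (adjusted p = 3.89e-05), FGF2 at -0.46 (adjusted p = 0.000186) and TGFA at 0.61 (adjusted p = 0.000986). Of 27 kinases, adaptors and brakes of the cascade 7 were higher and 3 lower, among them the kinase ARAF at 1.17 (adjusted p = 3.33e-08) and its relative BRAF at -0.32 (adjusted p = 5.40e-06).

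**Figure D3:**
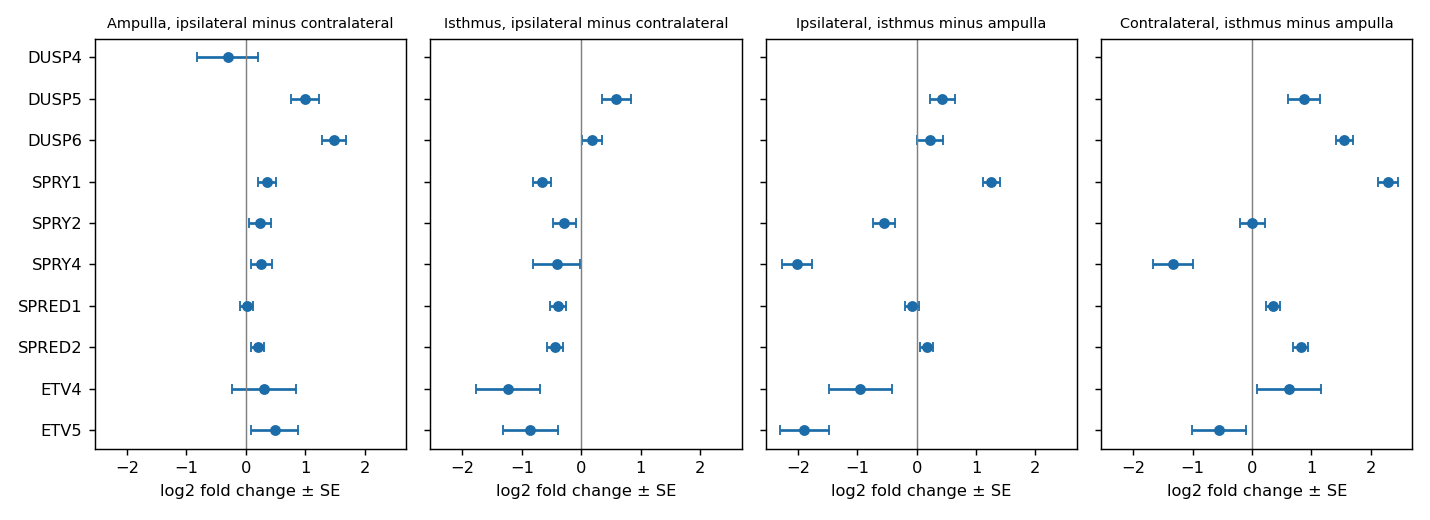
Log2 fold change (x axis) with its standard error (bars) of each member (y axis) over all 14 animals in 4 comparisons. In the ampulla DUSP6 (1.48) and DUSP5 (0.99) lie furthest from 0, and between regions SPRY1 is higher and SPRY4 lower in the isthmus on both sides. A gene without a point had too few counts to be fitted.

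Between the regions, Sprouty genes went in opposite directions on both sides. SPRY1 was higher in the isthmus and SPRY4 in the ampulla. Because these comparisons share the ampulla libraries assumed to have led to DUSP6, its values are descriptive and calls are counted over the other members. On the ipsilateral side 4 of these 8 were called (1 higher and 3 lower in the isthmus), beside 51.3% of the 14654 genes tested. On the contralateral side it was 5 of 8 (4 higher and 1 lower), beside 44.6% of 14680 genes. Both shares are near the background.

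SPRY1 ranged from 12.96 to 27.4 CPM (median 17.0) in the ipsilateral ampulla and from 5.41 to 22.5 CPM (median 14.9) in the contralateral ampulla. Neither range overlapped that of the isthmus on the same side, where the lowest libraries stood at 27.4 and 44.6 CPM. Ipsilaterally this was a near tie, 27.35 CPM in the ampulla against 27.40 CPM in the isthmus. That ampulla value was from non-lactating cow B, a library in doubt. The isthmus was higher in 14 of 14 animals on each side. The log2 fold change (isthmus minus ampulla) was 1.26 ± 0.14 ipsilaterally (adjusted p = 7.54e-09) and 2.29 ± 0.17 contralaterally (adjusted p = 3.76e-12). The summed level of the fibroblast genes was also higher in the isthmus. Its median was 41.5 to 45.5 CPM in the ampulla against 160 to 245 CPM in the isthmus, where LUM reached 294 CPM in 1 library. Over all libraries FBLN1 made up much of this sum, so it does not show that each fibroblast gene was higher. The part of these genes in the SPRY1 difference was not tested.

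SPRY4, another Sprouty inhibitor, ranged from 33.0 to 103 CPM (median 57.8) in the ipsilateral ampulla and from 2.55 to 44.0 CPM (median 13.5) in the ipsilateral isthmus. It was lower in the isthmus in 14 of 14 animals (-2.01 ± 0.26, adjusted p = 1.34e-07). Contralaterally the ranges were 17.2 to 80.8 CPM (median 47.6) and 1.51 to 41.2 CPM (median 19.4), with 13 of 14 animals lower in the isthmus (-1.33 ± 0.34, adjusted p = 0.00182). SPRY2 was lower in the isthmus ipsilaterally (-0.54 ± 0.19, adjusted p = 0.0159, 11 of 14 animals), from a median of 13.2 to 8.61 CPM, and contralaterally its interval was -0.41 to 0.42 (adjusted p = 0.989).

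Markers of endothelium and of ciliated cells were lower in the isthmus as well. The summed endothelial median was 160 and 232 CPM in the ipsilateral and contralateral ampulla against 30.6 and 45.2 CPM in the isthmus, with 4 of 5 tested genes called lower on each side. The summed ciliated median was 7127 and 7584 CPM against 4841 and 5673 CPM, with 8 and 9 of 9 genes called lower. Over all genes 3878 of 14654 were called lower ipsilaterally and 3308 of 14680 contralaterally. Their part in the SPRY4, SPRY2 and ETV5 differences was not tested.

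ETV5 varied widely between animals. It ranged from 2.45 to 36.3 CPM (median 10.03) in the ipsilateral ampulla and from 0.967 to 18.3 CPM (median 2.70) in the ipsilateral isthmus, where it was lower in 13 of 14 animals (-1.89 ± 0.41, adjusted p = 0.000335). Contralaterally the ranges were 1.57 to 28.5 CPM (median 8.39) and 0.523 to 50.1 CPM (median 4.35), with a log2 fold change of -0.55 ± 0.45 (adjusted p = 0.338). The value of 50.1 CPM belonged to lactating cow C, and without this animal ETV5 was called contralaterally as well (-1.005, adjusted p = 0.0457).

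**Figure D4:**
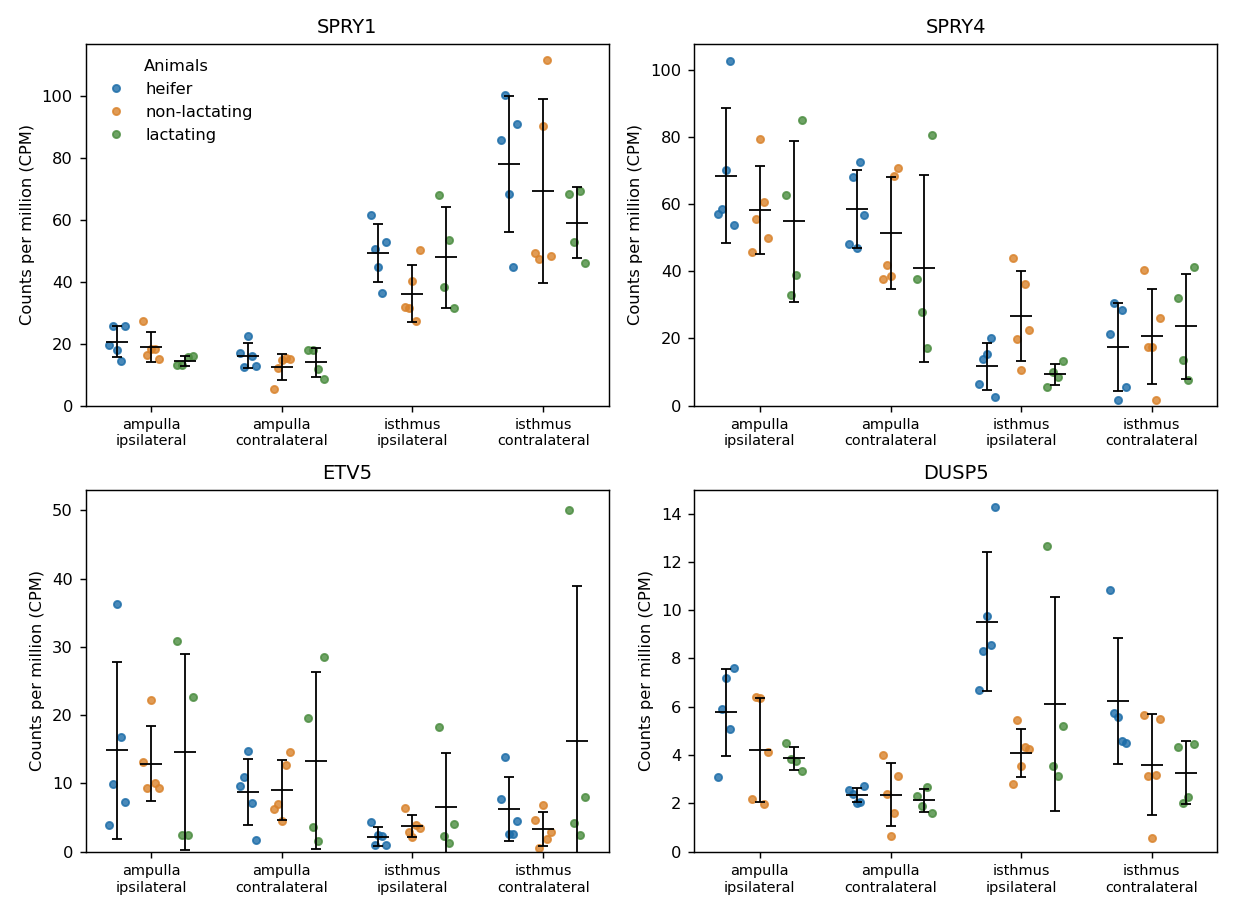
CPM (y axes, linear from 0) of SPRY1, SPRY4, ETV5 and DUSP5 in the 4 tissues (x axis) by metabolic group. Points are libraries, horizontal marks are group means and bars 1 SD, cut at 0. SPRY1 is highest in the isthmus, SPRY4 in the ampulla, and a single lactating animal holds the high ETV5 values of the isthmus, 18.3 and 50.1 CPM.

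The Spred genes and DUSP5 differed between the regions on the contralateral side. SPRED2 was higher in the contralateral isthmus in 14 of 14 animals (0.82 ± 0.13, adjusted p = 3.39e-06), SPRED1 in 10 of 14 (0.35 ± 0.12, adjusted p = 0.0205) and DUSP5 in 12 of 14 (0.88 ± 0.27, adjusted p = 0.00935). Ipsilaterally SPRED2 (0.17 ± 0.11, adjusted p = 0.214) and SPRED1 (-0.07 ± 0.12, 95% interval -0.31 to 0.16) did not pass the test. DUSP5 had 0.43 ± 0.22 there (adjusted p = 0.0949). It was called with the animal as a block (0.44, adjusted p = 0.0362) or without non-lactating cow A (0.56, adjusted p = 0.0348). Over all genes the block called 49.9% with the animal numbers of the column names, exchanged ones included, and 50.7% with these put right. DUSP6 differed from the isthmus by 1.56 ± 0.15 contralaterally, with 14 of 14 animals higher in the isthmus and no overlap, and by 0.23 ± 0.22 ipsilaterally.

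The related gene SPRY3, which is not among the 10, had the smallest p of the ERK target list between the regions. Its means were 0.135 to 1.23 CPM over the 6 ampulla conditions and 25.2 to 56.2 CPM over the 6 isthmus conditions, with log2 fold changes of 5.71 ± 0.33 ipsilaterally (adjusted p = 2.24e-14) and 5.12 ± 0.40 contralaterally (adjusted p = 9.46e-12). In that list 3 genes were higher and 9 lower in the isthmus of 23 tested ipsilaterally, and 8 and 8 of 24 contralaterally. The FGF receptor FGFR1 was higher in the isthmus on both sides (2.14 and 2.74, adjusted p = 5.53e-09 and 3.80e-12), whereas KIT, the receptor of stem cell factor, was lower (-1.37 and -1.21, adjusted p = 3.22e-08 and 5.63e-06). FGFR4 had means of 2.87 to 6.45 CPM over the ampulla conditions and 0.0387 to 0.327 CPM over those of the isthmus. Receptor kinases were 3 higher and 4 lower of 12 ipsilaterally and 5 and 2 of 12 contralaterally. For ligands the numbers were 3 and 6 of 13, and 1 and 3 of 10, and for the cascade 10 and 7 of 27, and 7 and 5 of 27. These counts stand beside 51.3% of all genes called ipsilaterally and 44.6% contralaterally.

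The study's first question was whether the metabolic state of the animal changes the oviduct. Between heifers, non-lactating and lactating cows no member was called in any of the 12 comparisons (3 pairs of groups in 4 tissues). Of 98 tests of members 11 had an unadjusted p under 0.05, where 3.57 to 11.8% of all genes did so in the single comparisons. The tests counted include DUSP6 in the ampulla, whose libraries were assumed to have led to the list. DESeq2 called 2 of the members. Over all genes edgeR called 0% in 11 of the comparisons and 0.0073% (1 of 13703 genes) in the ipsilateral isthmus between heifers and non-lactating cows. DESeq2 called more, up to 1.72% (236 of 13717 genes) in that same comparison and 1.06% (145 of 13621) between heifers and lactating cows in that tissue. In the contralateral isthmus it called 0.202% (32 of 15807) between heifers and non-lactating cows and 0.524% (73 of 13927) between heifers and lactating cows. The 4 lists of other genes of the route had 0 genes called by edgeR in the 12 comparisons. Since edgeR called almost no genes here, this count says little about the lists, and DESeq2 calls were not counted over them. The study itself names TGFA, of the ligand list, among genes regulated in the isthmus of lactating against non-lactating cows.

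DUSP5 came closest. In the ipsilateral isthmus it stood at 14.3, 6.71, 9.78, 8.56 and 8.32 CPM in heifers and at 3.56, 2.80, 4.33, 5.44 and 4.27 CPM in non-lactating cows. The groups did not overlap, and the log2 fold change (non-lactating minus heifer) was -1.20 ± 0.27 with an adjusted p of 0.136 by edgeR and 0.00857 by DESeq2. DUSP5 stands in the study's own list for this comparison, which used these libraries, so the DESeq2 call is not independent evidence. Lactating cows stood at 3.56, 3.12, 12.6 and 5.20 CPM and overlapped both groups.

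DUSP6 had means below those of heifers in cows of several tissues, none of them passing edgeR's threshold. In the contralateral isthmus the log2 fold change was -0.80 ± 0.18 for non-lactating cows minus heifers (adjusted p = 0.416 by edgeR and 0.0495 by DESeq2) and -0.57 ± 0.15 for lactating cows minus heifers (adjusted p = 0.372). The ampulla libraries were assumed to have led to DUSP6, so its values there are descriptive. In the ipsilateral ampulla the log2 fold change was -1.07 ± 0.30 for lactating cows minus heifers. In the contralateral ampulla it was -0.96 ± 0.35 for non-lactating cows minus heifers. SPRY4 in the ipsilateral isthmus was 1.20 ± 0.46 for non-lactating cows minus heifers (adjusted p = 0.330) and -1.52 ± 0.40 for lactating minus non-lactating cows (adjusted p = 0.778).

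ETV4 and DUSP4 were close to the limit of detection. ETV4 had 0 to 54 counts (median 4.5), with 22 of 56 libraries at 3 counts or fewer and 5 at 0, and DUSP4 had 0 to 24 counts (median 3), with 30 libraries at 3 counts or fewer and 9 at 0. The highest ETV4 values of the isthmus, 4.21 CPM ipsilaterally and 11.7 CPM contralaterally, were both in lactating cow C, the animal with the highest ETV5 there. A group mean of DUSP4 never passed 2.34 CPM. ETV4 was fitted in some comparisons, with -1.23 ± 0.54 between the sides of the isthmus (adjusted p = 0.0869) and -0.95 ± 0.53 and 0.62 ± 0.54 between the regions (adjusted p = 0.135 and 0.375). DUSP4 had too few counts in most comparisons, so most differences in it could not be tested. DESeq2, run without this filter, called DUSP4 between the regions on the contralateral side, beside 37.3% of the genes it tested. There DUSP4 was lower in the isthmus in 11 of 14 animals, with means of 0.521 CPM against 1.58 CPM in the ampulla.

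Across the 56 libraries, members did not move as a single block. The log2 CPM of DUSP6 correlated with that of SPRY1 at r = 0.67, of DUSP5 at 0.57, of SPRED2 at 0.48, of SPRED1 at 0.33, of SPRY2 at 0.19, of ETV5 at 0.01 and of SPRY4 at -0.35. These points share animals, tissues and depth, so the values only describe the table. With each condition's mean removed, the highest values were between ETV4 and ETV5 (0.60), SPRED2 and ETV5 (0.59), SPRY2 and ETV5 (0.50) and DUSP6 and SPRY1 (0.49), and SPRY1 and SPRY4 stood at -0.37. Over 11694 genes with a mean log2 CPM of at least 1, the genes whose pattern was most like that of DUSP6 were OCRL (r = 0.78), FAM3D (0.78), CBFB (0.77), SYNJ1 (0.76) and SLC38A1 (0.75), while SPRY1 ranked at 98 and DUSP5 at 488.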

How the data were processed

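RNA of oviduct epithelial cells was sequenced in 56 libraries of 14 animals. The authors demultiplexed 100 bp single-end stranded reads with bcl2fastq (version 1.8.4), aligned them to the bovine assembly Btau_4.6.1 with TopHat2 (2.0.13) and counted them by strand with HTSeq (0.6.1), and the deposited values are whole-number counts per gene, not normalized. Alignments on genes were 8.66 to 13.7% of those counted, and the 5 summary lines of the counter were left out. No 2 libraries of a condition agreed within sampling noise (chi-square per degree of freedom at least 4.64 over 104 pairs).

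Counts were normalized by TMM, filtered in every fit by filterByExpr (minimum count 10), and tested with edgeR (4.0.16, R 4.3.3). Calls were made from its quasi-likelihood F test when the p, adjusted over all genes by Benjamini-Hochberg, was under 0.05. The main fits had no term for the animal, so sides and regions were compared without pairing. Side and region fits over all animals held a term for metabolic group. CPM used TMM library sizes, log2 CPM a prior count of 2, and 3 counts were taken as the floor. Of 10 members 8 passed the filter in every comparison, and ETV4 and DUSP4 in some. The test was tried on simulated counts for the side comparison of the heifer isthmus only. Its libraries were drawn independently, so it does not cover the correlation between the sides of an animal. Alternatives were RLE size factors, no filter, DESeq2 (1.42.0), all 56 libraries in a single fit, each animal left out, the libraries in doubt left out and the animal as a block. For the regions on the ipsilateral side, a block with the 2 exchanged animal numbers swapped back was also fitted. For the sides of the ampulla, such a block was added after seeing the data.

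The members, the gene lists and the comparisons were chosen with earlier results of these data known. All members are named, and of the other lists examples from the 4 called genes with the smallest p in a comparison. The animal numbers come from the column names. Libraries of the same animal and region from both sides correlated at a median r of 0.34 (-0.043 to 0.66, 26 pairs, 20 above 0.1) over 10616 genes centred on their condition. Libraries of a group are from separate animals.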

Additional observations from a re-analysis of the deposited data

Results flagged for a closer look

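Within each condition of 4 or 5 animals, a value of a member was set apart when its gap to the nearest other, divided by the range, exceeded Dixon's 95% limit. Of 120 sets tested 12 held such a value. Chance gives about 1 in 20, or 6, only for independent and normally distributed values. These sets share animals and include values near the floor, so 12 beside 6 is not read as an excess.

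Lactating cow C held 5 of them, all in the isthmus. ETV5 was at 18.3 CPM ipsilaterally (next 4.06) and 50.1 CPM contralaterally (next 8.01), ETV4 at 4.21 CPM (next 0.416) and 11.7 CPM (next 0.943), and SPRY2 at 19.4 CPM contralaterally (next 10.6). In lactating cow B, SPRY2 was low in the contralateral ampulla, at 2.69 CPM with the next at 10.1 CPM.

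DUSP6 was high in the contralateral isthmus of non-lactating cow C (29.0 CPM, next 18.5) and in the ipsilateral ampulla of lactating cow D (20.5 CPM, next 14.4). DUSP5 was high in the contralateral isthmus of heifer B (10.8 CPM, next 5.74). SPRY1 was high in the ipsilateral ampulla library of non-lactating cow B (27.4 CPM, next 18.3), which is among the libraries in doubt. DUSP4 was high in the ipsilateral isthmus of non-lactating cow B (1.12 CPM, 6 counts) and of heifer A (1.28 CPM, 5 counts).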

How the results depend on the processing

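Of the counts of members called and the DUSP6 values in the ampulla, 304 values under the alternatives were labelled unchanged, and 11 counts rose. A count that moved by a small ratio was also labelled unchanged, so the loss of the SPRED1 call did not enter as a fall. A DUSP6 value was labelled unchanged when it moved by less than the SD between animals, without a p-value. Among single members fitted in the main test, 19 values became called and 5 lost their call. All 5 were for SPRED1 between the sides of the isthmus, where without the filter its adjusted p was 0.0516. Between the sides of the ampulla, 2 untested values near 0 changed sign, SPRED1 from 0.012 to as low as -0.034 with an animal left out, and DUSP4 from -0.31 to 0.023 without the libraries in doubt.

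DESeq2 called 1 member in place of 0 when heifers were set against non-lactating cows, DUSP5 in the ipsilateral and DUSP6 in the contralateral isthmus. Between the sides of the isthmus the members called in heifers were 1 by DESeq2, 1 with the replicate block and 0 to 1 with an animal left out. In non-lactating cows they were 1 by DESeq2, 1 without the filter, 1 in the fit of all 56 libraries and 0 to 1 with an animal left out. With the replicate block by animal they were 1 in lactating cows and 5 over all animals, and this block changed no other call than those given with the results. Over all genes, the calls between sides in lactating cows' isthmus went from 26 to 341 with the block and 333 by DESeq2, and in non-lactating cows from 709 to 1252 by DESeq2. Between metabolic groups DESeq2 called 0 to 236 genes and edgeR 0 to 1. Over all animals the DUSP6 difference of the ampulla was 1.44 with the block, also with the exchanged numbers put right, and 1.38 to 1.57 with an animal left out. Counting error limits ETV4, DUSP4 and the lowest DUSP5 values, and the causes of these changes were not tested.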
